A study of Mus musculus with 7 samples.

Results

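The C1q/TNF-related protein genes encode secreted relatives of adiponectin, and 7 of the 8 listed (C1qtnf1, C1qtnf2, C1qtnf3, C1qtnf4, C1qtnf6, C1qtnf7 and C1qtnf12) could be read from the arrays, out of 22180 genes measured. The members were listed by symbol, and the probe set that stands for a gene was chosen by its mean log2 level over all 7 arrays, the brightest among those that the platform annotation gives to 1 gene. Each of the 7 had just 1 such probe set, so that level decided nothing for them. C1qtnf5 has no value here, because its probe sets also list Mfrp, a gene of the same locus. The list was drawn up with earlier results of these data known, among them the rise of C1qtnf3, so its p-values are not independent evidence.

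Blastemas, the cell masses that form at the stump of an amputated digit tip, were taken from C57Bl/6 mice 2 weeks after amputation (n = 3), and uninjured digits of the same strain were taken for comparison (n = 4). The labels give no sex, age or batch, and call the samples of a group biological replicates. RNA was hybridised to 1-colour arrays, whose values are log2 levels. The question is how the 2-week blastema differs from the intact digit. Across genes, pairs of blastema arrays correlated at r = 0.988 to 0.992, pairs of uninjured arrays at 0.986 to 0.991, and pairs with 1 array of each kind at 0.964 to 0.979. On the second principal component, with 14.3% of the variance, blastema array 1 (15.78) and uninjured array 1 (24.77) stood apart from the other arrays (-13.59 to -3.18). No detection calls were used here, so background was approximated by a level of 5.52, under which 95% of 1105 olfactory receptor genes lay. Arrays have no read depth, and their number limits the precision.

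C1q/TNF-related proteins are built like adiponectin, with a signal peptide, a collagen-like stretch and a globular C1q domain at the carboxyl end, and they assemble into trimers and larger complexes. They circulate or act locally, and are best known from fat, vessel wall, cartilage and connective tissue as signals for metabolism and cell growth. The collagen-like stretch of this family is modified by the same hydroxylases that act on collagens.

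In the blastema C1qtnf3 and C1qtnf6 were higher and no measured member was lower. By limma with Benjamini-Hochberg adjustment over all 22180 genes, 2 of the 7 members passed an adjusted p of 0.05, against 9.64% of all genes in either direction and 4.98% upward. In a fit of only the 13316 genes above the background proxy in 1 group or both, 2737 were called, 1405 of them higher. That share is larger than the share of all genes, and 2 of the 6 members tested there passed. At an unadjusted p under 0.05 there were 3 higher and 0 lower of the 7, against 12.2% and 12.7% of all genes (24.9% in either direction). The groups did not overlap for 2 members, both higher in blastema, against 21.0% of all genes in either direction and 10.4% upward. The median log2 fold change of the 7 was 0.01, and that of all genes was -0.01. With the arrays scaled to reference genes, 23.7% of called genes were higher in the blastema in place of 51.7%, and the same 2 members passed. The reference genes were not all unchanged, since limma called 3 of the 11 measured higher and 1 lower.

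**Figure D1:**
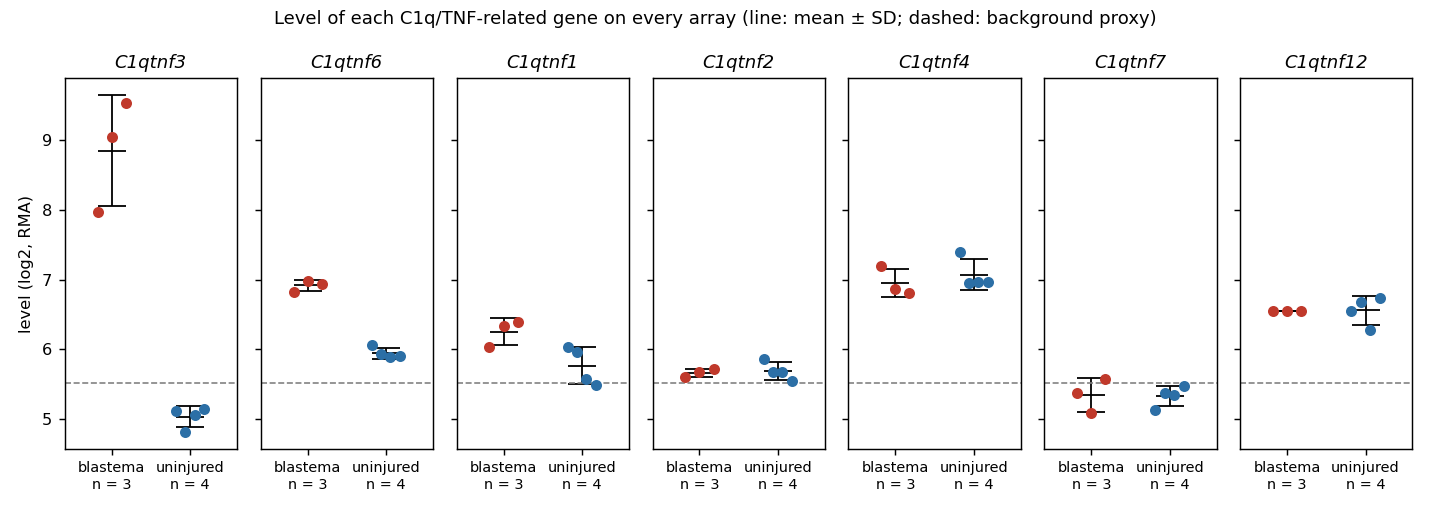
Log2 level of each measured C1q/TNF-related gene on every array, with blastemas (red, n = 3) left of uninjured digits (blue, n = 4). Black lines give the mean ± SD and the dashed line is the background proxy of 5.52. C1qtnf3 and C1qtnf6 are the genes whose groups do not overlap.

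C1qtnf3, also called cartducin, is made in growth plate cartilage and promotes growth of cartilage progenitor cells in culture. Its log2 level was 7.97, 9.04 and 9.52 on blastema arrays 1, 2 and 3, against 5.12, 4.82, 5.06 and 5.15 on uninjured arrays 1 to 4. All blastemas lay far above all uninjured digits, whose levels were all below the background proxy. The group means were 8.84 ± 0.79 in blastema (SD, n = 3) and 5.04 ± 0.15 in uninjured digit (SD, n = 4). The log2 fold change was 3.80 ± 0.33 (SE), or 14.0-fold, with a limma adjusted p of 0.00184, and higher in 3 of 3 blastemas. Since the uninjured levels were below the proxy, the size of the rise is not fixed. With the uninjured mean raised to the proxy it was estimated at 9.99-fold, a value that does not count the spread of the blastemas. The blastemas differed among themselves by 1.55 on the log2 scale between the lowest (array 1) and the highest (array 3), against 0.33 among uninjured digits.

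C1qtnf6, a secreted protein that dampens the alternative complement pathway in mouse joints, showed a smaller rise with little scatter. Its log2 level was 6.83, 6.98 and 6.94 on blastema arrays 1 to 3, against 6.06, 5.93, 5.89 and 5.90 on uninjured arrays 1 to 4. The groups did not overlap, and the range within each was 0.16 in blastema and 0.17 in uninjured digit. The log2 fold change was 0.97 ± 0.07 (SE), or 1.96-fold, with a limma adjusted p of 0.00126. By p-value it ranked 27th of all genes. In whole digit tissue, more cells of a type and more RNA per cell cannot be told apart, for this and each gene below.

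The bases just before the annotated starts of C1qtnf3 and C1qtnf6, the members that rose, are shown to set their promoters side by side. They come from RefSeq (GRCm38.p6), each 250 bases long and read 5′ to 3′. The C1qtnf3 window is chr15:10952082-10952331 on the plus strand and that of C1qtnf6 is chr15:78529652-78529901 on the minus strand. Capitals mark matches, on either strand, to the TATA box searched as TATAAA, the CCAAT box searched as CCAAT, the AP-1 motif searched as TGANTCA, the RUNX motif searched as TGTGGT or the SP motif searched as GGGCGG.
C1qtnf3: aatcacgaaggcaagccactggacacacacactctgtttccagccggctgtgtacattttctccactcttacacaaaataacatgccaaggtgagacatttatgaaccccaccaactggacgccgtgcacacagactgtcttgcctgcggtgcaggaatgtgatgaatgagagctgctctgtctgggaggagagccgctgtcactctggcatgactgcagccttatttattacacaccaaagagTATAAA
C1qtnf6: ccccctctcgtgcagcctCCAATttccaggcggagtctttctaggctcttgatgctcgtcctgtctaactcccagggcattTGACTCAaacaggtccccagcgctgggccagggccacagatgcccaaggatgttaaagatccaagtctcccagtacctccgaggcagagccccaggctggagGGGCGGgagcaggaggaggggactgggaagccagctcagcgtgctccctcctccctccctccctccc
The C1qtnf3 window held 1 match, to the TATA box, in the last 6 bases before the start. The C1qtnf6 window held the CCAAT box, the AP-1 motif and the SP motif, beginning 232, 169 and 67 bases before the start, none overlapping another. The windows had no motif of the 5 in common. Among 32851 windows of the same length, the TATA box was found in 12.4%, the CCAAT box in 33.8%, the AP-1 motif in 6.75%, the RUNX motif in 14.0% and the SP motif in 32.7%. GC content was 49.2% for C1qtnf3 and 62.8% for C1qtnf6, against a median of 52.4% over all windows. These matches describe letters only, and binding was not measured. Of the other members, C1qtnf2, C1qtnf5 and C1qtnf7 also matched an entry, and C1qtnf1, C1qtnf4 and C1qtnf12 are named only.

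C1qtnf1, whose protein binds collagen, did not pass. Its log2 level was 6.03, 6.34 and 6.39 on blastema arrays 1 to 3, against 6.03, 5.97, 5.58 and 5.50 on uninjured arrays 1 to 4. Blastema array 1 lay within the range of the uninjured digits, so the groups overlapped. The log2 fold change was 0.48 ± 0.16 (SE, 95% interval 0.11 to 0.86, limma adjusted p = 0.114). With array weights in the fit it was 0.58 and passed (limma adjusted p = 0.0395).

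The other measured members showed differences near 0 with overlapping groups. C1qtnf4, which carries a pair of C1q domains and no collagen-like stretch, had log2 levels of 7.19, 6.86 and 6.80 in blastemas 1 to 3, against 7.40, 6.95, 6.97 and 6.97 in uninjured digits 1 to 4 (log2 fold change -0.12, 95% interval -0.46 to 0.22, limma adjusted p = 0.658). The highest level in each group was that of array 1. C1qtnf12, or adipolin, an adipose-derived protein that improves insulin action in mice, had the same deposited value of 6.54 on all 3 blastema arrays and on uninjured array 1. The other uninjured arrays gave 6.68, 6.28 and 6.73, on either side of it (log2 fold change -0.01, 95% interval -0.28 to 0.25, limma adjusted p = 0.954). A blastema SD of 0 from tied values is not an estimate of the spread between animals.

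C1qtnf2, a close relative of adiponectin that raises fat oxidation in muscle cells, had log2 levels of 5.60, 5.67 and 5.72 in blastemas 1 to 3, against 5.87, 5.68, 5.67 and 5.56 in uninjured digits 1 to 4. The highest of these levels, 5.87, was close to the background proxy, and low signal limits this comparison (log2 fold change -0.03, 95% interval -0.23 to 0.16, limma adjusted p = 0.855). C1qtnf7, linked to insulin action in obese mice, had log2 levels of 5.38, 5.10 and 5.58 in blastemas 1 to 3, against 5.14, 5.38, 5.35 and 5.48 in uninjured digits 1 to 4. It was the only member with both group means below the proxy, and only blastema array 3 exceeded it (log2 fold change 0.01, 95% interval -0.29 to 0.32, limma adjusted p = 0.964). The intervals of C1qtnf2, C1qtnf4, C1qtnf7 and C1qtnf12 all lie under the estimated rise of C1qtnf6. C1qtnf2, C1qtnf7 and C1qtnf12 changed sign under some alternative settings, and C1qtnf4 under none of those run.

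**Figure D2:**
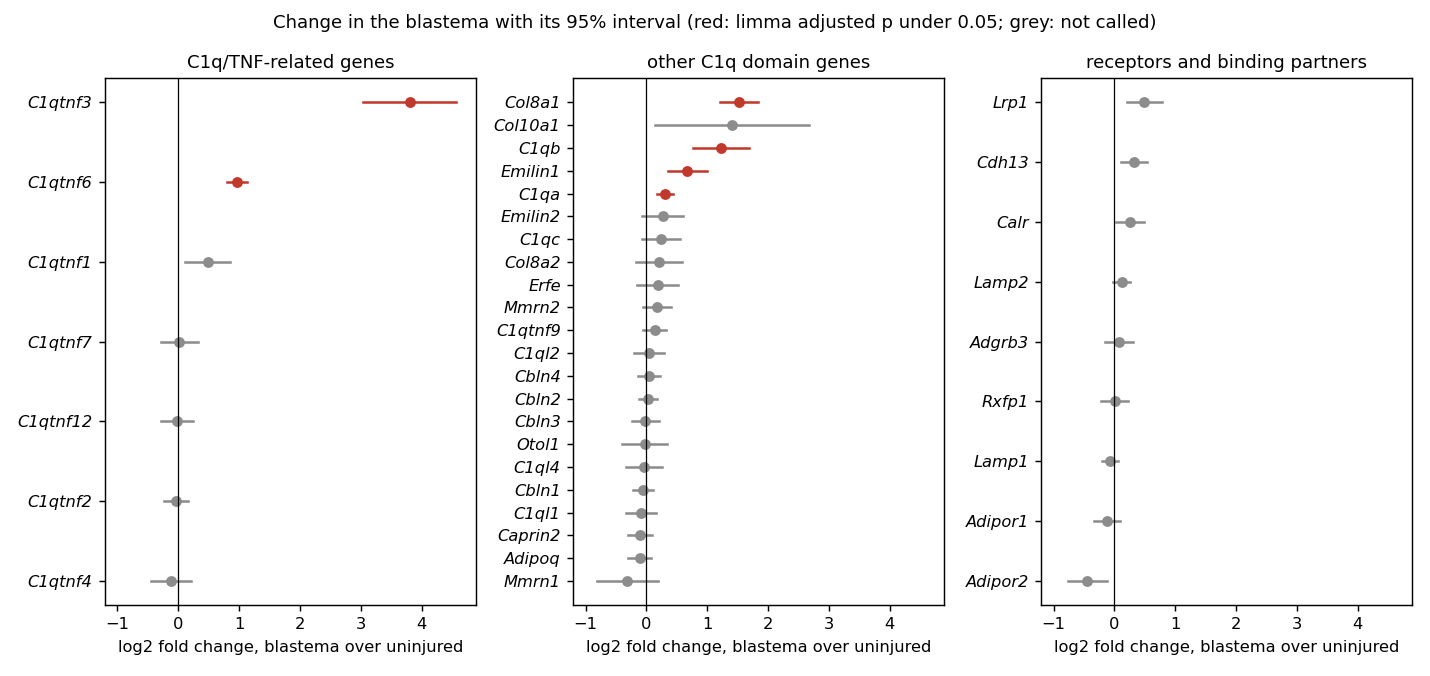
Log2 fold change of blastema over uninjured digit with its 95% interval, for the C1q/TNF-related genes, the other C1q domain genes and the receptors and binding partners. Red marks a limma adjusted p under 0.05: 2 of 7, 4 of 22 and 0 of 9 genes.

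Other genes with a C1q domain were compared as relatives outside the list, among them the complement C1q chains, the cerebellins, the short-chain collagens and the emilins. Of 22 measured, 4 were higher and 0 lower by limma adjusted over all genes, against 4.98% and 4.66% of all genes, with 5 and 0 at an unadjusted p under 0.05. Their median log2 fold change was 0.09. Col8a1, a short-chain collagen of vessel wall and other basement membranes, rose most, with log2 levels of 8.40, 8.54 and 8.82 in blastemas against 7.29, 7.08, 7.03 and 6.86 in uninjured digits. All blastemas lay above all uninjured digits (log2 fold change 1.52 ± 0.13 SE, limma adjusted p = 0.00184). C1qb (1.23 ± 0.20) and C1qa (0.31 ± 0.06), chains of complement C1q that macrophages make, rose too (limma adjusted p = 0.0113 and 0.0202). The other chain gene, C1qc, named after its values were seen, did not pass (0.24 ± 0.14, limma adjusted p = 0.317). Its groups did not overlap, and its uninjured mean of 5.42 lay below the background proxy. The remaining gene that rose was Emilin1, an elastic fibre glycoprotein (0.68 ± 0.13, limma adjusted p = 0.0227). Adipoq, the adiponectin gene and model for the family, lay below the background proxy on every array, at 3.98, 4.01 and 3.91 in blastemas against 4.11, 3.98, 4.24 and 3.98 in uninjured digits (log2 fold change -0.11, limma adjusted p = 0.446).

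The count of 4 fell to 2 without blastema array 2 or 3 or uninjured array 3 or 4, and under scaling to reference genes, while Col8a1 passed in each of the 16 other settings run. Emilin1 lost its call on omission of 5 of the 7 arrays (limma adjusted p = 0.0587 to 0.0937) and C1qa on omission of 4 (0.0543 to 0.0683). Col10a1, the collagen of hypertrophic cartilage, is named after its values were seen. It had log2 levels of 7.37, 7.56 and 7.11 in blastemas, against 5.10, 6.86, 4.91 and 6.90 in uninjured digits. The uninjured digits thus fell into a low pair (arrays 1 and 3) and a high pair, and the gene did not pass (log2 fold change 1.41, 95% interval 0.14 to 2.68, limma adjusted p = 0.161). Arrays 1 and 3 were also the low pair for the osteoblast markers Ibsp, Dmp1 and Phex and the chondrocyte markers Comp and Acan. The osteoblast markers Sp7 and Alpl did not split this way. These markers, too, are named after their values were seen.

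Genes for receptors and binding partners showed no call. Of 9 measured, limma called 0, and at an unadjusted p under 0.05 3 were higher and 1 lower, against 12.2% and 12.7% of all genes. The calls became 2 higher and 1 lower with array weights or without both arrays numbered 1, 2 higher among genes above the background proxy, 1 higher and 1 lower without blastema array 1, and 1 higher without uninjured array 1. The smallest p was that of Lrp1, a large endocytic receptor, with log2 levels of 9.15, 9.46 and 9.56 in blastemas against 8.97, 9.01, 8.66 and 8.94 in uninjured digits. Its groups did not overlap (log2 fold change 0.49 ± 0.13 SE, limma adjusted p = 0.0522), and it passed under 6 of 16 other settings, among them the omission of blastema array 1 (0.0263). The others at that level, named after their values were seen, were Cdh13 (0.32), a cadherin that holds adiponectin at the cell surface, Calr (0.26), which binds complement C1q, and the adiponectin receptor gene Adipor2 (-0.44). Their limma adjusted p-values were 0.0755, 0.159 and 0.0924. Adipor1, the other adiponectin receptor gene, differed by -0.12 (95% interval -0.33 to 0.10, limma adjusted p = 0.48).

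Genes for collagen folding and secretion, among them hydroxylases that also act on collagen-like stretches, were taken as a further list. Whether any of them acts on the members was not tested. Of 17 measured, 7 rose and 0 fell by limma, against 4.98% and 4.66% of all genes, with 11 and 1 at an unadjusted p under 0.05, and their median log2 fold change was 0.45. P4ha3, a proline hydroxylase subunit, rose most, with log2 levels of 8.61, 9.31 and 9.96 in blastemas against 5.89, 5.61, 5.51 and 5.50 in uninjured digits. As with C1qtnf3, blastema array 1 was the lowest of its group and array 3 the highest (log2 fold change 3.66 ± 0.29 SE, limma adjusted p = 0.00147). Crtap (2.04) and P3h1 (1.96), partners in proline 3-hydroxylation of collagen, and Serpinh1 (1.52), the collagen chaperone, rose as well (limma adjusted p = 0.00173, 0.00214 and 0.0035). For Crtap, P3h1 and Serpinh1 too, array 1 was the lowest blastema and array 3 the highest. That order is therefore not particular to P4ha3 and C1qtnf3. P4ha1, also called higher, was lowest on array 1 and highest on array 2. The count was 11 without blastema array 1 or with array weights, 10 without both arrays numbered 1, and 6 without blastema array 2 or 3 or uninjured array 3.

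**Figure D3:**
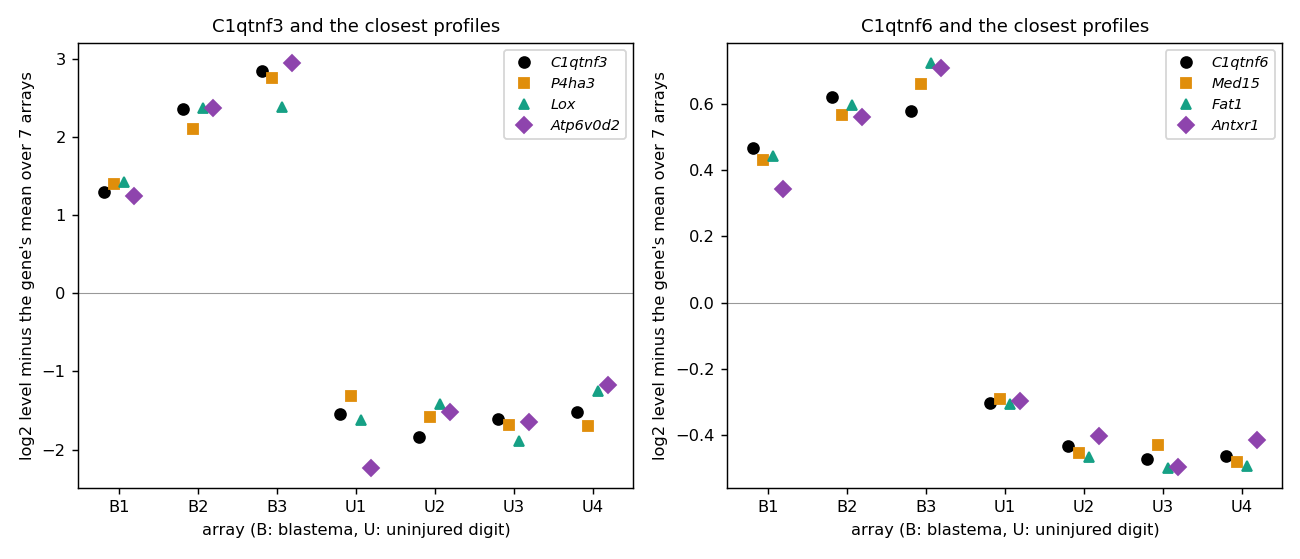
Log2 level minus the gene's mean over the 7 arrays, for blastemas (B1 to B3) and uninjured digits (U1 to U4), of C1qtnf3 (left) and C1qtnf6 (right) with the 3 genes closest to each. Blastema array 1 is the lowest blastema for C1qtnf3 and for its closest genes P4ha3, Lox and Atp6v0d2. The closest genes were picked by these same levels, so a shared low array partly follows from the choice.

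P4ha3 was also the gene whose array profile lay closest to that of C1qtnf3, when each gene's 7 levels were centred on their mean. Their root mean square difference was 0.19 on the log2 scale. Next came Lox, the lysyl oxidase that crosslinks collagen (0.29), and Atp6v0d2, an osteoclast proton pump subunit (0.32), and all 3 were higher in the blastema. Closest to C1qtnf6 were Med15, a Mediator subunit (0.04), the atypical cadherin gene Fat1 (0.06) and Antxr1, a collagen-binding receptor (0.07). C1qtnf1 had Ap1m1 (0.05), Odf1 (0.06) and Nfatc4 (0.07) closest, none of them called. These distances describe 7 arrays in 2 groups, and any gene with a like difference between the groups lies close.

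**Figure D4:**
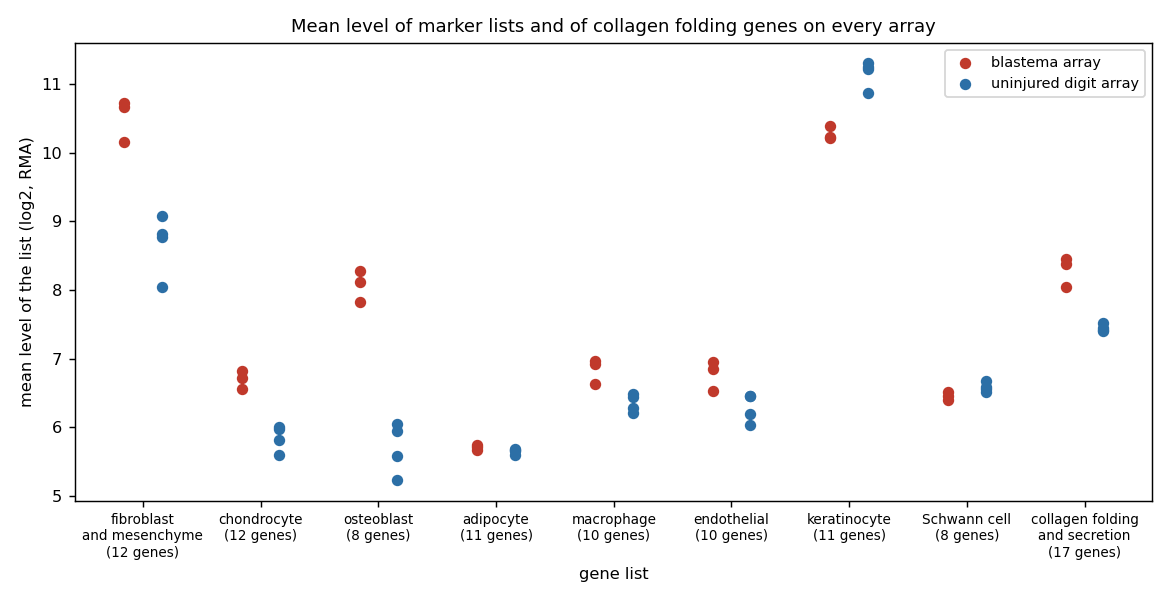
Mean log2 level of 8 marker lists and of the collagen folding genes on each blastema array (red, left) and each uninjured array (blue, right). Fibroblast, osteoblast, chondrocyte, macrophage, endothelial and collagen folding lists lie higher on every blastema array. The keratinocyte list lies lower, and the adipocyte list overlaps. The Schwann cell list nearly touches, with a highest blastema mean of 6.516 and a lowest uninjured mean of 6.518.

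Markers of several cell types moved with the rises of C1qtnf3 and C1qtnf6, and their part in those rises was not tested. The counts below stand against 4.98% of all genes higher and 4.66% lower, shares that were larger among genes above the background proxy. Of 12 fibroblast and mesenchyme markers, 8 were higher and 0 lower by limma, with list means of 10.15 to 10.73 in blastemas and 8.04 to 9.07 in uninjured digits. Of 8 measured osteoblast markers 7 were higher, with means of 7.82 to 8.28 in blastemas and 5.23 to 6.04 in uninjured digits. Chondrocyte markers were higher in 6 of 12, with means of 6.56 to 6.82 in blastemas and 5.59 to 6.00 in uninjured digits, and Col9a1, Matn1 and Cnmd lay below the background proxy in both groups. That count was 3 without blastema array 3 or uninjured array 2, 3 or 4, and 4 without blastema array 2 or scaled to reference genes. Macrophage markers were higher in 3 of 10 (6.64 to 6.96 in blastemas, 6.20 to 6.48 in uninjured digits) and endothelial markers in 2 of 10 (6.53 to 6.95 in blastemas, 6.04 to 6.46 in uninjured digits), with Cd163, Aif1 and Cldn5 below the proxy. The macrophage count was 0 without blastema array 2 or 3 or uninjured array 3 or 4, and the endothelial count was 0 without blastema array 2 or 3 or uninjured array 1 or 3 and 1 without uninjured array 2 or 4. Without both arrays numbered 1 each was 4. Keratinocyte markers, which define digit skin, were lower in 5 of 11 and well above the proxy in both groups (10.21 to 10.39 in blastemas, 10.88 to 11.30 in uninjured digits). That count was 2 without blastema array 2 or uninjured array 4 and 3 without blastema array 1 or 3 or uninjured array 2 or 3. Of 8 measured Schwann cell markers 1 was lower (6.39 to 6.52 in blastemas, 6.52 to 6.68 in uninjured digits), with S100b and Cdh19 below the proxy, and that call was lost on omission of any array but blastema array 1, where the count was 2. Adipocyte markers were higher in 1 of 11 and their list means overlapped, at 5.67 to 5.74 in blastemas and 5.60 to 5.68 in uninjured digits. The 1 call was kept without blastema array 1 or uninjured array 1 and lost on omission of any other array, and scaling to reference genes gave 0 higher and 2 lower. Adipoq, Cidec, Lep, Retn and Pparg, 5 of those 11, lay below the proxy in both groups.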

How the data were processed

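Total RNA (400 ng per sample) from 3 blastemas and 4 uninjured digits was labelled with biotin, per the labels' protocols. The deposited log2 values were made by the authors with oligo and RMA, per the submitters' processing notes, which correct background, normalize between arrays and summarise probes; no source used here gives versions or a genome build. The 41345 probe sets had array medians of 5.53 to 5.58, and 0 columns belonged to other samples. The platform annotation gave 1 symbol to 23521 probe sets, several to 1814 and none to 16010. The first kind gave 22180 genes, the brightest probe set standing for each of 1082 genes with several. All 7 members matched RefSeq by Entrez identifier with the same symbol.

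Blastema was compared with uninjured digit by limma 3.58.1 (R 4.3.3; lmFit, eBayes, no covariate, no filter), two-sided, with Benjamini-Hochberg adjustment over all genes, after a test on simulated data. Named genes are all members, up to 4 called genes of each pathway list with the largest change (or the smallest p), Adipoq, and the 3 nearest profiles of the 3 members with the largest change. Markers are given by list. Members and lists were chosen with earlier results of these data known. The labels do not say whether shared replicate numbers pair the samples. Deviations of same-numbered arrays correlated at r = 0.29, 0.15 and -0.07, and those of different-numbered arrays at -0.22 to 0.14. These values do not settle whether the numbers mark pairs, so the replicate block was run as an alternative. Figures used Python 3.11.15 and matplotlib 3.10.9.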

Additional observations from a re-analysis of the deposited data

Results flagged for a closer look

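Probe sets outside the comparisons hold a signal at the C1qtnf5 locus. A probe set listing C1qtnf5 and Mfrp had log2 levels of 6.38, 6.25 and 6.06 in blastemas, against 5.68, 5.48, 5.60 and 5.52 in uninjured digits, and the groups did not overlap. In a fit over all probe sets its log2 fold change was 0.662 (95% interval 0.43 to 0.89, limma adjusted p = 0.013). Another probe set listing the same genes gave 0.18 (95% interval -0.09 to 0.44, limma adjusted p = 0.406). Neither can be given to C1qtnf5 or to Mfrp.

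Outliers were sought in 17 genes, namely the measured members, the genes picked by rule from the pathway lists, and Adipoq. Other genes named in the text were not checked. In 3 of the 17, 1 uninjured digit lay far from the other uninjured digits. The gap to the nearest of them, as a share of the whole range, was above Dixon's 95% critical value for 4 samples. Chance gives such a gap in about 1 in 20 groups. C1qtnf4 (0.952) was high on uninjured array 1, C1qb (0.911) was low on uninjured array 3, and C1qa (0.874) was high on uninjured array 2.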

How the results depend on the processing

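C1qtnf3 and C1qtnf6 passed under each of the 17 alternatives, with log2 fold changes of 3.47 to 4.27 (limma adjusted p = 5.91e-05 to 0.0371) and 0.80 to 1.06 (0.000452 to 0.0378). C1qtnf7 was not among the genes kept by the background proxy. Signs near 0 turned for 3 members, in each case with a limma adjusted p of 0.432 or more. C1qtnf2 was 0.0100 with array weights, 0.058 without both arrays numbered 1, 0.00044 without blastema array 1 and 0.026 without uninjured array 1, in a range of -0.078 to 0.026 over single omissions. C1qtnf7 was -0.073 with array weights, -0.16 scaled to reference genes, -0.022 centred on the median and -0.068 without both arrays numbered 1. Single omissions gave -0.099 to 0.14, among them -0.0020 without blastema array 1 and -0.053 without uninjured array 1. C1qtnf12 was 0.044 with the replicate block, 0.026 without uninjured array 2 and 0.044 without uninjured array 4. Its range was -0.11 to 0.044 over single omissions, and scaling to reference genes gave -0.19. Over all genes limma called 2139 (1105 higher, 1034 lower), and with the replicate block 599 (295 and 304). Under the replicate block 1 other C1q domain gene was higher in place of 4, with C1qb (limma adjusted p = 0.0804), C1qa (0.0972) and Emilin1 (0.111) losing their calls. The block also gave 5 collagen folding genes and, among markers, 4 fibroblast, 4 chondrocyte, 2 macrophage and 0 endothelial genes higher and 2 keratinocyte genes lower. Scaling to the 11 measured reference genes lowered every log2 fold change by 0.17 and gave 657 higher and 2111 lower. These reference genes differed between the groups themselves, from 1.34 for B2m to -0.82 for Rplp0, so the scaled counts are not a correction by stable controls. Testing every probe set gave 1619 lower. Omitting blastema array 1 or uninjured array 1 gave 2295 or 1910 calls, and omitting any other array 845 to 1244. Over all omissions 457 to 1286 genes were higher and 365 to 1009 lower.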

Other observations

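Exact ties between arrays were frequent in the deposited values. Of 22180 genes, 11739 (52.9%) had the same value on at least 2 arrays and 6546 (29.5%) on at least 3. Ties were found in 67.5% of genes below the background proxy in both groups and in 43.3% of the others. Of the 11739, 18 were called by limma. Among the members C1qtnf12 had 4 arrays at 1 value, C1qtnf2, C1qtnf4 and C1qtnf7 had 2 each, and C1qtnf1, C1qtnf3 and C1qtnf6 had no tie. In 706 genes all blastema arrays shared 1 value.

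C1qtnf9, a family member outside the list, stayed near the proxy, at 5.72, 5.59 and 5.59 in blastemas against 5.59, 5.40, 5.39 and 5.60 in uninjured digits (limma adjusted p = 0.341). A probe set listing C1qtnf1 and Gm11747 gave 5.34, 5.32 and 5.34 in blastemas against 5.25, 5.22, 5.34 and 5.34 in uninjured digits, under the proxy on every array.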
